A study of Mus musculus with 12 samples.

Results

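The genes described here encode the nuclear subunits of the mitochondrial respiratory chain and ATP synthase, measured in mouse spinal cord. A gene was a member when its symbol in the platform annotation begins with Ndufa, Ndufb, Ndufc, Ndufs, Ndufv, Uqcr, Cox4, Cox5, Cox6, Cox7, Cox8 or Atp5, or is Sdha, Sdhb, Sdhc, Sdhd, Cyc1 or Cycs. Assembly factors of the Ndufaf type, pseudogenes and opposite-strand transcripts were left out. The rule used names alone and no measured value, and it found 84 members among 18194 genes. Of these, 36 carry complex I names, 4 belong to complex II, 9 to complex III and 17 to complex IV, 17 are ATP synthase subunits and 1 is cytochrome c.

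Total RNA was hybridised to 12 one-colour Affymetrix arrays in 4 groups of 3, which cross genotype (Olig2cre/DA-Cat and wild type) with day (day 15 and day 4). Olig2cre/DA-Cat mice express Cre recombinase from the Olig2 gene, which is active in the oligodendrocyte lineage and in the progenitors of motor neurons, and DA-Cat is a dominant-active form of β-catenin, through which the Wnt pathway turns on its target genes; the wild types were littermates. No group carried Cre alone, so an effect of Cre or of the Olig2 allele cannot be told apart from that of active β-catenin. The labels call the replicates biological and do not give the number of animals in each, so p-values measure the spread between these samples. They tag day as a developmental stage, yet their treatment protocol describes lysolecithin lesions in adult ventrolateral white matter, so what the days count from was not settled. Other cells of the cord, including neurons and astrocytes, remain in the sample.

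In the respiratory chain, complex I (NADH dehydrogenase) and complex II (succinate dehydrogenase) pass electrons to ubiquinone, complex III hands them to cytochrome c, and complex IV (cytochrome c oxidase) gives them to oxygen. Complexes I, III and IV pump protons across the inner membrane, and ATP synthase uses the gradient to make ATP. A few catalytic subunits are encoded by mitochondrial DNA, and all other subunits are nuclear genes like those described here. Nervous tissue depends heavily on this pathway, since neurons spend much of their ATP on ion pumping and synaptic transmission. Complex IV is the complex with the most alternative subunits: several positions are filled by one isoform in most tissues and by another in muscle, lung or testis.

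Levels are deposited log2 signals, differences are log2 with their standard error (SE), and each gene is represented by its probe set of highest mean. A member was called when the limma test over all genes, adjusted by Benjamini-Hochberg, gave p under 0.05. Axin2, a feedback target of Wnt signalling, measured 7.83, 7.97 and 7.81 in Olig2cre/DA-Cat at day 15, against 7.24, 7.31 and 7.51 in wild type at day 15. At day 4 it measured 8.94, 8.80 and 8.95 in Olig2cre/DA-Cat, against 7.95, 7.75 and 7.83 in wild type. Axin2 was thus higher in Olig2cre/DA-Cat at both days, by 0.51 at day 15 (adjusted p = 0.0057) and 1.05 at day 4 (adjusted p = 1.16e-05). Olig2 was lower, by -0.44 (adjusted p = 0.0278) and -0.90 (adjusted p = 0.000171). Ctnnb1, the β-catenin gene, differed by -0.07 and -0.05 and was not called; whether its probe set lies in the altered part was not tested.

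Array medians lay between 6.14 and 6.19. A pair of arrays stood apart, both from Olig2cre/DA-Cat at day 15. Replicate 1 had a mean level of 10.38 over 21 skeletal muscle genes, where the other arrays had 5.44 to 8.26. Replicate 2 had a level of 3.29 for the Y-linked gene Eif2s3y, where the other arrays had 6.54 to 8.82. The 17 neuron markers averaged between 11.31 and 11.57 on all 12 arrays, well above the array medians, in samples whose source is labelled white matter.

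The start regions of members with distinctive data, and of Cox8a as the widely used partner of Cox8b, are shown first. They let the isoforms be compared with the widely used subunits. The windows run from 250 bases before to 50 bases after the annotated gene start, are given 5′ to 3′ on the gene's strand, and come from RefSeq on GRCm38.p6. Sdha, the flavoprotein of complex II and the called member of the largest rise at day 15 among the widely expressed subunits, lies at chr13:74350191-74350490 on the minus strand. Cox8a, a widely used complex IV subunit, lies at chr19:7217567-7217866 on the minus strand, and its muscle counterpart Cox8b at chr7:140900397-140900696 on the minus strand. Cox7a1, another muscle isoform, lies at chr7:30183921-30184220 on the plus strand, and Cox6b2, a testis isoform, at chr7:4753045-4753344 on the minus strand. Capitals mark matches to the searched motifs.
Sdha: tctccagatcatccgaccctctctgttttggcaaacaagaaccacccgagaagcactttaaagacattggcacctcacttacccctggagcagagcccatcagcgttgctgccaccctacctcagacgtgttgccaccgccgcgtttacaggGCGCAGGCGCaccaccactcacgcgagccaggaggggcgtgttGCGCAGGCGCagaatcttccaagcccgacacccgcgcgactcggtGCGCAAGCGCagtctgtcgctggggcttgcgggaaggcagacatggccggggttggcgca
Cox8a: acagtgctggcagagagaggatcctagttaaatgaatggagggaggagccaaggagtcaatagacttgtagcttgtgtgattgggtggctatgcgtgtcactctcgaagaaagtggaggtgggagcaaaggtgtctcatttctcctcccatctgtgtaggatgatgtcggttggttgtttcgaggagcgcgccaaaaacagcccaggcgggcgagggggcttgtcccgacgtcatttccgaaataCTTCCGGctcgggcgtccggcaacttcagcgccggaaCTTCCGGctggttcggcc
Cox8b: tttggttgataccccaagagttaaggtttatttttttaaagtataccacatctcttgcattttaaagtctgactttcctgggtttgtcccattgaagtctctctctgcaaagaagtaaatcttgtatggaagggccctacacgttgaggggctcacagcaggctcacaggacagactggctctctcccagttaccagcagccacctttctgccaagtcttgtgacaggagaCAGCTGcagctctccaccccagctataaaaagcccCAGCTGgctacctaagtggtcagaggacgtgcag
Cox7a1: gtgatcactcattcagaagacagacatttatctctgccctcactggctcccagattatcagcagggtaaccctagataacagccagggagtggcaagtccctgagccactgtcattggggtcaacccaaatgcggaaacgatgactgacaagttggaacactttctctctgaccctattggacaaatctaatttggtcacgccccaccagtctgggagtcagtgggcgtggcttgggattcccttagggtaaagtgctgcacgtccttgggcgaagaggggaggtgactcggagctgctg
Cox6b2: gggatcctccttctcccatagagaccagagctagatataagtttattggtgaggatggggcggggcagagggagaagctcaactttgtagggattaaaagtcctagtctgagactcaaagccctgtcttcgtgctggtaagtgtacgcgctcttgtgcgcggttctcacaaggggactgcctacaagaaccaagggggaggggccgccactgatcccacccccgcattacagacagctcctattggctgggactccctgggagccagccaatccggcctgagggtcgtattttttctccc

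The capitals in the Sdha window are 3 matches to the core of the element bound by nuclear respiratory factor 1 (NRF1), which is GCGC, any 2 bases and GCGC again. Those in Cox8a are 2 matches to CCGGAAG, read on the opposite strand, the core of ETS sites such as those of GABP. Those in Cox8b are 2 copies of CAGCTG, an E-box of the kind bound by myogenic factors. The Cox7a1 and Cox6b2 windows held no match to these letters nor to AAGATGG (YY1), AAGGTCA (oestrogen-related receptors, ERR) or TAAAAATA (MEF2). Both strands were searched for every motif, and motifs could overlap one another.

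Of the 84 members, 68 had a window in the table, 5 of them more than 1. The NRF1 letters stood in 25% of the 68, against 18.9% of 1986 non-members with a mean level of 10 or more and 7% of all 27025 genes of the table. The ETS letters stood in 25% of members, against 20.3% and 9.93%. For YY1 the shares were 14.7% of members, against 9.87% and 7.28%, and for ERR 11.8%, against 3.47% and 5.38%. The E-box was in 8.82% of members, against 18.5% and 18.3%, and the MEF2 letters in 0 of the 68, against 1.56% and 3.09%. The ERR letters stood in 8 members: Atp5e, Atp5g3, Atp5k, Atp5l, Ndufb2, Ndufb4, Ndufs5 and Sdhd. A match is a description of letters in the window and not evidence of binding.

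The members were bright as a group. A mean level of 10 or more was found for 73 of the 84, against 13.7% of all genes, and 3 lay below the array medians: Ndufb4 at 4.66, Cox7b2 at 5.21 and Cox4i2 at 5.47. Probe sets differ in brightness for the same amount of RNA, so these signals do not rank transcripts. By mean signal, complex III members ranged between 11.64 (Uqcrfs1, the Rieske iron-sulfur protein) and 13.68 (Uqcrb), and ATP synthase subunits between 10.94 (Atp5md) and 13.61 (Atp5g3, a gene for the c ring). Complex II ran between 10.58 (Sdhc) and 12.37 (Sdhb), complex I between 4.66 (Ndufb4) and 13.13 (Ndufa4), and complex IV between 5.21 (Cox7b2) and 14.20 (Cox6a1). Cytochrome c (Cycs) averaged 12.29. The spread between replicates was small, with a median residual SD of 0.06 log2 for members and 0.11 for all genes.

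Between day 4 and day 15 the respiratory chain genes moved mostly upward in both genotypes, by small amounts. In Olig2cre/DA-Cat 52 of 84 members rose and 1 fell, where 21.8% of all genes rose and 26.3% fell. In wild type 35 rose and 2 fell, where 21.3% of all genes rose and 23.6% fell. The members' median difference was 0.22 in Olig2cre/DA-Cat and 0.14 in wild type, against 0.00 and -0.02 over all genes. Genes with a mean level of 10 or more rose in 35.9% of cases in Olig2cre/DA-Cat and 34.4% in wild type, which is the nearer background for members this bright. In wild type 22 of the 35 rises were in complex I. The wild-type shares of complex II (1 of 4), complex IV (3 of 17) and ATP synthase (5 of 17) lay below that background. In this bulk tissue a change in the share of a cell type and a change in RNA per cell cannot be told apart.

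The 35 members that rose in both genotypes were 67.3% of those that rose in Olig2cre/DA-Cat and 100% of those that rose in wild type. Over all genes, 17.5% rose in both. A further 17 were called in Olig2cre/DA-Cat alone and 32 in neither, and these calls do not show that the genotypes differ. The mean level of the 73 bright members was 12.46, 12.51 and 12.50 in Olig2cre/DA-Cat at day 15, against 12.28, 12.26 and 12.26 at day 4. In wild type it was 12.38, 12.40 and 12.43 at day 15, against 12.19, 12.20 and 12.31 at day 4. No day 15 array overlapped a day 4 array of its genotype, and wild type day 4 replicate 3 was the highest of the day 4 arrays. Leaving out wild type day 4 replicate 1 lowered the wild-type count of called members to 24 (22 higher), against 37 with it. In that fit 18.7% of all genes were called higher, and the share of bright genes was not computed. The excess of wild-type rises over bright genes was therefore not shown to hold without that array.

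**Figure D1:**
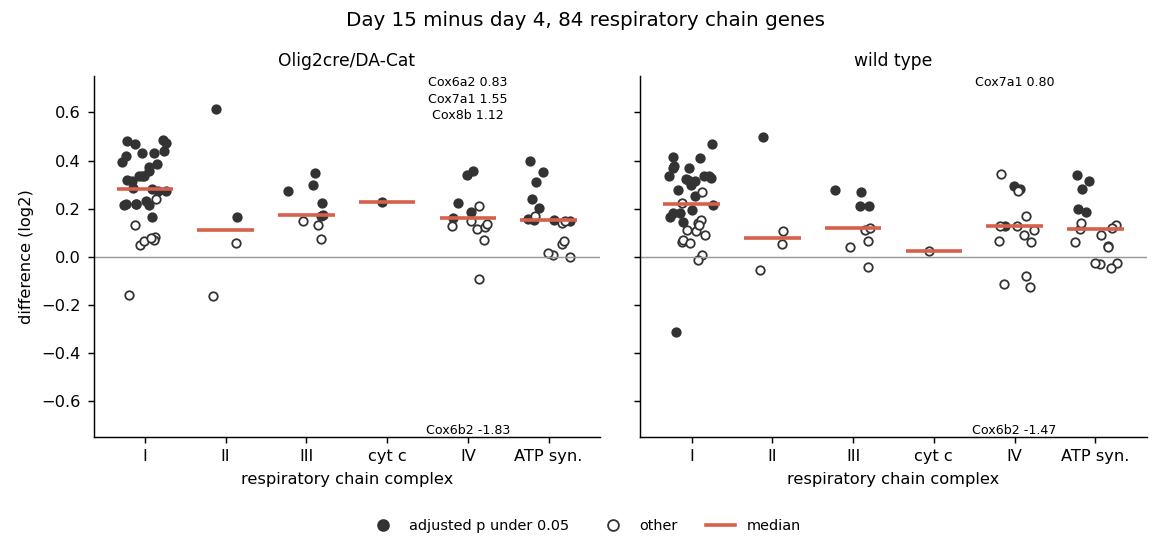
Difference between day 15 and day 4 (log2, vertical axis) for the 84 members by complex, in Olig2cre/DA-Cat (left) and wild type (right). Filled points are genes with adjusted p under 0.05, open points are other genes, bars are medians, and genes outside the axis are written at its edge with their values; most points lie above 0, with complex I medians of 0.28 and 0.22.

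Complex I held the most calls: 28 of 36 members rose in Olig2cre/DA-Cat and 22 in wild type, with median differences of 0.28 and 0.22. Genes with a mean level of 10 or more rose in 35.9% and 34.4% of cases. In the NADH module, where electrons enter, 5 of 7 rose in Olig2cre/DA-Cat and 4 in wild type; in the Q module, where ubiquinone is reduced, 5 of 7 and 4; and in the proton-pumping membrane arm, 17 of 20 and 13. Ndufb9, an accessory subunit at the far end of the membrane arm, measured 12.96, 12.90 and 12.93 in Olig2cre/DA-Cat at day 15, against 12.43, 12.44 and 12.46 at day 4. In wild type it measured 12.75, 12.79 and 12.83 at day 15, against 12.48, 12.42 and 12.47 at day 4. All day 15 arrays were above all day 4 arrays, by 0.49 ± 0.05 (adjusted p = 6.12e-06) in Olig2cre/DA-Cat and 0.34 ± 0.05 (adjusted p = 0.000159) in wild type.

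Ndufv1, which binds NADH, had 12.19, 12.07 and 12.19 in Olig2cre/DA-Cat at day 15, against 11.74, 11.68 and 11.71 at day 4, and in wild type 11.96, 12.04 and 11.99 at day 15, against 11.63, 11.68 and 11.70 at day 4. It rose by 0.44 ± 0.06 (adjusted p = 3.38e-05) in Olig2cre/DA-Cat and 0.33 ± 0.06 (adjusted p = 0.000411) in wild type. Ndufs1, the iron-sulfur subunit of the same module, had 11.90, 11.84 and 11.87 in Olig2cre/DA-Cat at day 15, against 11.51, 11.46 and 11.48 at day 4. In wild type Ndufs1 had 11.72, 11.76 and 11.78 at day 15, against 11.37, 11.46 and 11.41 at day 4. The groups did not overlap in either genotype, and the rises were 0.39 ± 0.05 and 0.34 ± 0.05 (adjusted p = 4.95e-05 and 0.000174). Ndufa9, an accessory subunit of the Q module, rose by 0.43 ± 0.06 in Olig2cre/DA-Cat and 0.32 ± 0.06 in wild type. Ndufb10 of the membrane arm had 11.19, 11.21 and 11.28 in Olig2cre/DA-Cat at day 15, against 10.72, 10.84 and 10.70 at day 4, and in wild type 11.06, 11.01 and 11.22 at day 15, against 10.58, 10.66 and 10.64 at day 4. It rose by 0.47 ± 0.07 in both (adjusted p = 8.28e-05 and 0.000103), and Ndufb3 by 0.43 ± 0.06 and 0.41 ± 0.06. Over all called complex I members the rises ran between 0.17 (Ndufb2) and 0.49 (Ndufb9) in Olig2cre/DA-Cat and between 0.14 (Ndufb8) and 0.47 (Ndufb10) in wild type.

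The rise was not called for every complex I gene. In the NADH module Ndufv3 differed by 0.08 in Olig2cre/DA-Cat and -0.01 in wild type, and Ndufs4, an accessory subunit whose loss causes a Leigh-like disease in mice, by 0.07 and 0.15; neither was called. Ndufa5 and Ndufa7 of the Q module and Ndufb11 and Ndufc2 of the membrane arm differed by 0.05 to 0.13 in Olig2cre/DA-Cat and by 0.01 to 0.11 in wild type, also without a call. These values depend on the probe set. In wild type other bright probe sets differed by 0.16 for Ndufa5, by 0.21 and 0.05 for Ndufb11, by 0.17 and 0.10 for Ndufc2 and by 0.02 to 0.14 for Ndufa7. The chosen ones differed by 0.01, 0.06, 0.06 and 0.11. Members named for being uncalled here, apart from those of the fixed panel, were chosen after their values were seen. Ndufb4 was called in Olig2cre/DA-Cat (0.47 ± 0.10), but its signal of 4.28 to 4.96 on all arrays was below the array medians.

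Ndufa4 and Ndufa4l2 carry complex I names, although Ndufa4 protein is now placed in complex IV and Ndufa4l2 is its hypoxia-inducible paralog. Ndufa4 had 13.28, 13.37 and 13.36 in Olig2cre/DA-Cat at day 15, against 13.02, 12.98 and 13.00 at day 4, and in wild type 13.19, 13.25 and 13.28 at day 15, against 12.91, 12.91 and 13.02 at day 4. It rose by 0.34 ± 0.06 (adjusted p = 0.000301) in Olig2cre/DA-Cat and 0.30 ± 0.06 (adjusted p = 0.000843) in wild type. Ndufa4l2 had 6.77, 6.77 and 6.80 in Olig2cre/DA-Cat at day 15, against 6.87, 6.86 and 7.09 at day 4, and in wild type 6.51, 6.62 and 6.71 at day 15, against 6.83, 6.89 and 7.05 at day 4. The paralog fell in wild type (-0.31 ± 0.08, adjusted p = 0.00742) and differed by -0.16 ± 0.08 in Olig2cre/DA-Cat (adjusted p = 0.129). The difference between these day effects, 0.15 ± 0.12, was not called (adjusted p = 0.698).

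Of the 4 complex II subunits, 2 rose in Olig2cre/DA-Cat and 1 in wild type, against 35.9% and 34.4% of bright genes. Sdha, the catalytic flavoprotein shared with the tricarboxylic acid cycle, had 12.22, 12.00 and 12.06 in Olig2cre/DA-Cat at day 15, against 11.53, 11.39 and 11.52 at day 4. In wild type Sdha had 12.04, 11.94 and 11.80 at day 15, against 11.46, 11.35 and 11.47 at day 4. It rose 1.53-fold in Olig2cre/DA-Cat (0.61 ± 0.08, adjusted p = 3.87e-05) and 1.41-fold in wild type (0.50 ± 0.08, adjusted p = 0.000243). Sdhb, the iron-sulfur subunit, had 12.45, 12.51 and 12.52 in Olig2cre/DA-Cat at day 15, against 12.35, 12.30 and 12.33 at day 4, and in wild type 12.33, 12.38 and 12.42 at day 15, against 12.20, 12.24 and 12.38 at day 4. It rose in Olig2cre/DA-Cat (0.17 ± 0.06, adjusted p = 0.0373) and differed by 0.10 ± 0.06 in wild type (adjusted p = 0.187). The membrane anchors were not called: Sdhc differed by 0.06 and 0.05, and Sdhd by -0.16 (adjusted p = 0.103) and -0.06 (adjusted p = 0.596).

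In complex III 6 of 9 members rose in Olig2cre/DA-Cat and 4 in wild type, against 35.9% and 34.4% of bright genes. The small subunits Uqcr10, Uqcr11, Uqcrh and Uqcrq rose in both, by 0.22 to 0.35 in Olig2cre/DA-Cat and 0.21 to 0.28 in wild type. Uqcr11 had 12.24, 12.40 and 12.32 in Olig2cre/DA-Cat at day 15, against 11.96, 11.97 and 11.99 at day 4 (adjusted p = 0.0022), and in wild type 12.17, 12.18 and 12.27 at day 15, against 11.85, 11.85 and 12.12 at day 4 (adjusted p = 0.0115). Its day 15 and day 4 values did not overlap in either genotype. Uqcrfs1 and Uqcrb rose in Olig2cre/DA-Cat, each by 0.17 ± 0.05, and differed by 0.12 and 0.06 in wild type without a call. The electron-carrying Cyc1 (cytochrome c1) had 12.58, 12.55 and 12.64 in Olig2cre/DA-Cat at day 15, against 12.55, 12.48 and 12.52 at day 4, and in wild type 12.41, 12.43 and 12.46 at day 15, against 12.45, 12.45 and 12.53 at day 4. It differed by 0.07 in Olig2cre/DA-Cat (adjusted p = 0.279) and -0.04 in wild type (adjusted p = 0.564), and the core proteins Uqcrc1 and Uqcrc2 were not called.

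Cycs, the mobile electron carrier that also triggers the apoptosome, had 12.25, 12.42 and 12.33 in Olig2cre/DA-Cat at day 15, against 12.16, 12.16 and 12.00 at day 4. In wild type it had 12.27, 12.38 and 12.44 at day 15, against 12.47, 12.35 and 12.21 at day 4. Cycs rose in Olig2cre/DA-Cat (0.23 ± 0.08, adjusted p = 0.0351) and differed by 0.02 ± 0.08 in wild type (adjusted p = 0.863). The wild-type groups overlapped, and the difference between the day effects was 0.21 ± 0.11 (adjusted p = 0.58). The probe sets of Cycs disagreed in wild type: the other 2 with a level above 8, at 12.27 and 11.82 against 12.29 for the kept one, differed by 0.26 and 0.29 in wild type and by 0.31 and 0.46 in Olig2cre/DA-Cat.

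**Figure D2:**
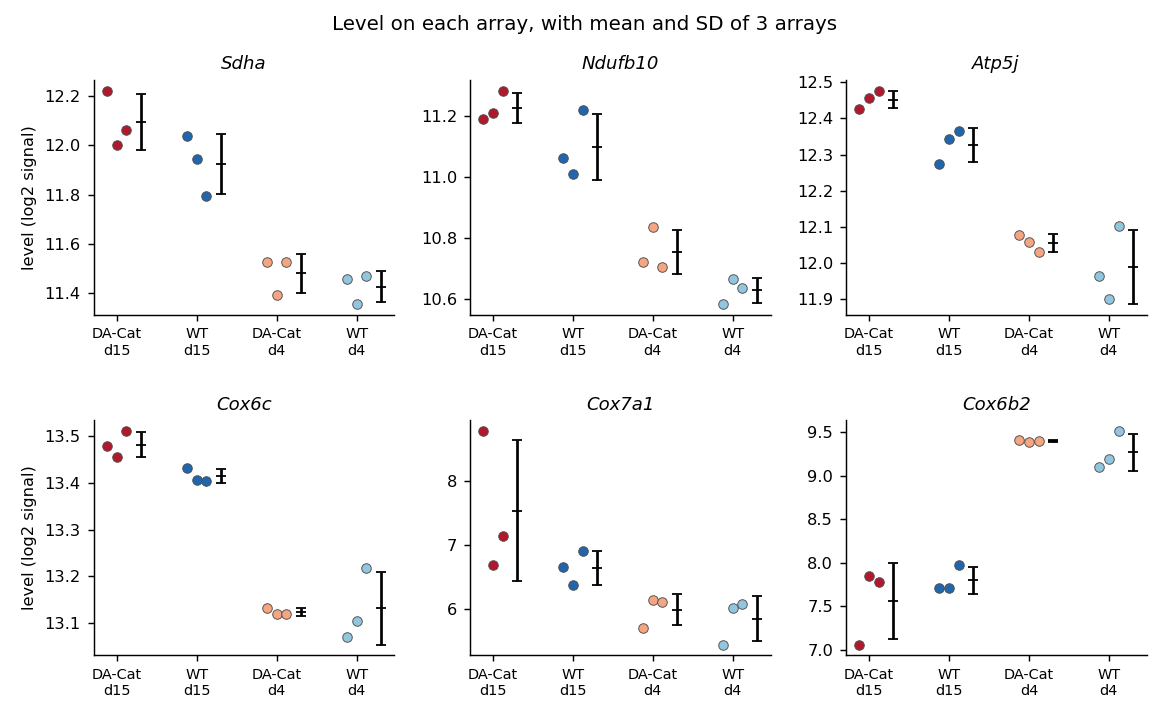
Level (log2 signal, vertical axes that do not start at 0) of 6 members on each of the 12 arrays, in Olig2cre/DA-Cat (DA-Cat) and wild type (WT) at day 15 (d15) and day 4 (d4). Points are arrays and bars are the mean ± SD of 3; Sdha, Ndufb10, Atp5j, Cox6c and Cox7a1 are higher on the day 15 arrays and Cox6b2 is lower.

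Complex IV held both small shared rises and the largest changes among all members. Of its 10 widely used subunits, 5 rose in Olig2cre/DA-Cat (Cox4i1, Cox5b, Cox6b1, Cox6c and Cox7a2) and 3 in wild type (Cox4i1, Cox5b and Cox6c). Among bright genes 35.9% rose in Olig2cre/DA-Cat and 34.4% in wild type, so the wild-type share was not above this background. Cox6c, a small membrane subunit, had 13.48, 13.46 and 13.51 in Olig2cre/DA-Cat at day 15, against 13.13, 13.12 and 13.12 at day 4, and in wild type 13.43, 13.41 and 13.40 at day 15, against 13.07, 13.11 and 13.22 at day 4. It rose by 0.36 ± 0.05 (adjusted p = 0.000136) in Olig2cre/DA-Cat and 0.28 ± 0.05 (adjusted p = 0.000941) in wild type. Cox4i1, the widely used form of the regulatory subunit that binds ATP, had 13.71, 13.69 and 13.73 in Olig2cre/DA-Cat at day 15, against 13.37, 13.39 and 13.36 at day 4, and in wild type 13.64, 13.66 and 13.64 at day 15, against 13.35, 13.28 and 13.43 at day 4. It rose by 0.34 ± 0.05 (adjusted p = 0.000183) and 0.29 ± 0.05 (adjusted p = 0.000626). Its hypoxia-responsive partner Cox4i2, the lung isoform, stayed between 5.23 and 5.68 on all arrays, below the array medians.

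Other widely used complex IV subunits were not called in either genotype. Cox6a1 differed by 0.12 in Olig2cre/DA-Cat and 0.06 in wild type, Cox8a by 0.14 and 0.11, and Cox5a by 0.11 and 0.09. Here too the probe set matters. The other bright probe set of Cox6a1 differed by 0.24 and 0.16, and that of Cox8a by 0.14 and 0.10. Those of Cox5a differed by -0.01 and 0.07 in Olig2cre/DA-Cat and by -0.11 and -0.10 in wild type. Cox7a2l, which helps to join complexes III and IV into supercomplexes, differed by -0.09 (adjusted p = 0.211) and -0.08 (adjusted p = 0.282).

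Cox6b2, the isoform of subunit 6b known from testis, was the member with the largest fall. It had 7.06, 7.85 and 7.78 in Olig2cre/DA-Cat at day 15, against 9.41, 9.38 and 9.39 at day 4, and in wild type 7.71, 7.71 and 7.98 at day 15, against 9.10, 9.19 and 9.51 at day 4. Every day 15 array lay more than 1 log2 unit below every day 4 array. The level at day 15 was 0.281 of that at day 4 in Olig2cre/DA-Cat (-1.83 ± 0.18, adjusted p = 3.12e-06) and 0.362 of it in wild type (-1.47 ± 0.18, adjusted p = 2.42e-05). Over 26 settings, the one reported included, the difference ran between -2.08 and -1.58 in Olig2cre/DA-Cat and between -1.56 and -1.35 in wild type. The widely used partner Cox6b1 rose in Olig2cre/DA-Cat (0.19 ± 0.05, adjusted p = 0.0113) and differed by 0.13 in wild type (adjusted p = 0.069). The other testis isoforms, Cox8c and Cox7b2, were not called at any comparison. Of the 15 cell cycle genes measured, 14 also fell in each genotype, with medians of -1.47 in Olig2cre/DA-Cat and -1.39 in wild type. Over all genes 26.3% fell in Olig2cre/DA-Cat and 23.6% in wild type, so a fall with day is not particular to these genes. The part of dividing cells in the fall of Cox6b2 was not tested.

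Cox7a1, the muscle form of subunit 7a, was the member with the largest called rise. It had 8.78, 6.69 and 7.15 in Olig2cre/DA-Cat at day 15, against 5.71, 6.15 and 6.12 at day 4, and in wild type 6.67, 6.38 and 6.91 at day 15, against 5.45, 6.03 and 6.09 at day 4. The day 15 and day 4 arrays did not overlap in either genotype, and replicate 1 was the highest by far. Cox7a1 rose 2.92-fold in Olig2cre/DA-Cat (1.55 ± 0.41, adjusted p = 0.0071) and differed by 0.80 ± 0.41 in wild type (adjusted p = 0.136). With the mean level of 21 skeletal muscle genes as a covariate, the rise was 1.13 ± 0.22 in Olig2cre/DA-Cat (adjusted p = 0.0011) and 0.76 ± 0.21 in wild type, which was then called (adjusted p = 0.00979). Without Olig2cre/DA-Cat day 15 replicate 1, the rise in Olig2cre/DA-Cat was 1.90-fold (0.92 ± 0.22, adjusted p = 0.00482), and the wild-type rise was also called (adjusted p = 0.00584). Its widely used partner Cox7a2 rose by 0.16 ± 0.05 in Olig2cre/DA-Cat (adjusted p = 0.0206) and differed by 0.13 in wild type (adjusted p = 0.0654).

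The remaining muscle isoforms varied widely between replicates and were not called with all arrays in the fit. Cox8b had 9.76, 5.66 and 7.68 in Olig2cre/DA-Cat at day 15, against 6.13, 5.49 and 6.50 in wild type at day 15. At day 4 it had 5.51, 7.91 and 6.31 in Olig2cre/DA-Cat, against 4.94, 6.54 and 5.61 in wild type. All 4 groups overlapped, and the same arrays were high for Cox8b and for the muscle genes. At day 15 the muscle list averaged 10.38, 5.58 and 8.26 in Olig2cre/DA-Cat, against 6.48, 5.45 and 7.42 in wild type. At day 4 it averaged 5.57, 8.05 and 6.99 in Olig2cre/DA-Cat, against 5.44, 7.50 and 6.10 in wild type.

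Cox6a2, the muscle form of subunit 6a, had 10.39, 6.63 and 8.17 in Olig2cre/DA-Cat at day 15, against 6.79, 6.82 and 7.30 in wild type at day 15. At day 4 it had 6.89, 8.32 and 7.49 in Olig2cre/DA-Cat, against 6.67, 7.53 and 7.06 in wild type. For each log2 unit of the muscle list, Cox8b was higher by 0.82, Cox6a2 by 0.64 and Cox7a1 by 0.35, as fitted over the 12 arrays, and these were the 3 members with a slope above 0.2. The median slope of the members was -0.00, and Cox8a stayed between 12.37 and 12.67 on every array. The genotype difference at day 15 was 1.66 ± 0.86 for Cox8b (adjusted p = 0.361) and 0.33 ± 0.20 with the muscle covariate (adjusted p = 0.543). For Cox6a2 it was 1.43 ± 0.70 (adjusted p = 0.331), and 0.38 ± 0.27 with the covariate (adjusted p = 0.595). Single arrays of Olig2cre/DA-Cat at day 15 decided both values. Without replicate 1 the difference was 0.43 for Cox6a2 (adjusted p = 0.72) and 0.63 for Cox8b (adjusted p = 0.739). Replicate 2 had the lowest Eif2s3y level of all arrays and, at 5.58, the lowest muscle list level of its group. Without replicate 2 the difference was 2.31 for Cox6a2, which was then called (adjusted p = 0.0389), and 2.68 for Cox8b (adjusted p = 0.0601). The difference between day 15 and day 4 in Olig2cre/DA-Cat, 0.83 for Cox6a2 and 1.12 for Cox8b with all arrays, was -0.16 and 0.10 without replicate 1, and 1.72 and 2.14 without replicate 2, where both were called (adjusted p = 0.0254 and 0.0316). Whether muscle tissue in the sample accounts for these levels was not tested beyond this covariate.

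**Figure D3:**
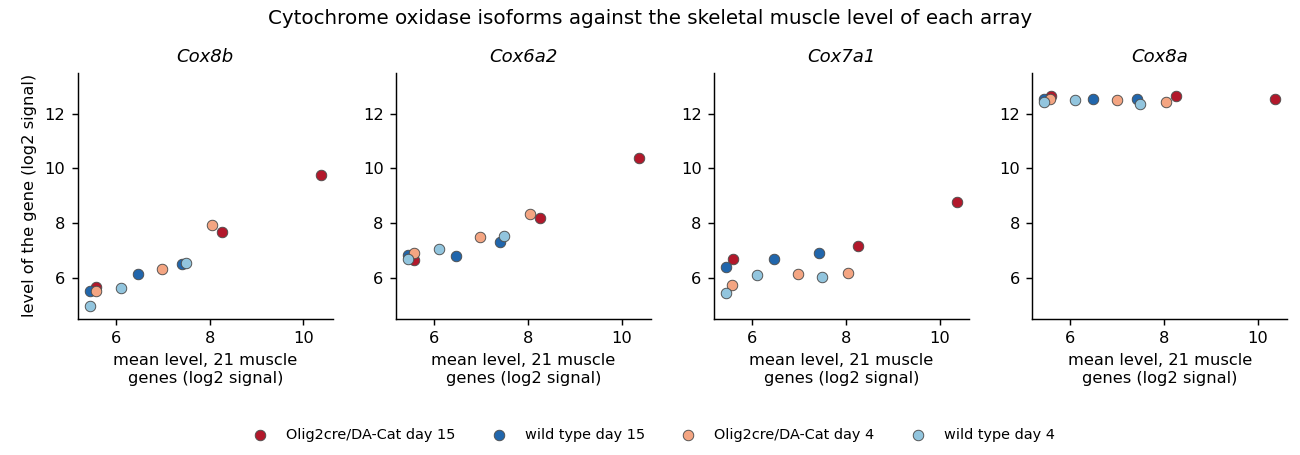
Level of Cox8b, Cox6a2, Cox7a1 and Cox8a (log2 signal, vertical axis) against the mean level of 21 skeletal muscle genes on the same array (log2 signal, horizontal axis), 1 point per array, coloured by group. Cox8b and Cox6a2 climb with the muscle level up to 9.76 and 10.39 on the array at 10.38, Cox7a1 climbs less steeply, and Cox8a stays between 12.37 and 12.67.

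For ATP synthase, 9 of 17 subunits rose in Olig2cre/DA-Cat and 5 in wild type, with medians of 0.15 and 0.12. Bright genes rose in 35.9% and 34.4% of cases, so the wild-type share was below this background. The 5 shared genes encode parts of the peripheral stalk (Atp5h and Atp5j) and small membrane subunits (Atp5k, Atp5md and Atp5mpl). Atp5j, coupling factor F6, had 12.43, 12.46 and 12.47 in Olig2cre/DA-Cat at day 15, against 12.08, 12.06 and 12.03 at day 4, and in wild type 12.28, 12.34 and 12.36 at day 15, against 11.96, 11.90 and 12.10 at day 4. It rose by 0.40 ± 0.06 (adjusted p = 0.00015) in Olig2cre/DA-Cat and 0.34 ± 0.06 (adjusted p = 0.000584) in wild type. Atp5h rose by 0.35 ± 0.06 and 0.32 ± 0.06, and Atp5k by 0.31 ± 0.06 and 0.28 ± 0.06.

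Of the 5 subunits of the catalytic F1 head, 3 rose in Olig2cre/DA-Cat and 0 in wild type. Its α, β and γ subunits Atp5a1, Atp5b and Atp5c1 each rose by 0.15 ± 0.05 in Olig2cre/DA-Cat (adjusted p = 0.0322, 0.0335 and 0.0376) and differed by 0.12, 0.13 and 0.09 in wild type without a call. The Atp5a1 values depend on the probe set. Its other probe sets, at levels of 12.82 and 8.59, differed by 0.07 and -0.06 in Olig2cre/DA-Cat and by -0.01 and -0.13 in wild type. Atp5d and Atp5e, the δ and ε subunits, differed by 0.01 and -0.00 in Olig2cre/DA-Cat and by -0.03 each in wild type. The c ring is encoded by 3 genes for the same mature protein: Atp5g3 rose in Olig2cre/DA-Cat (0.16 ± 0.05, adjusted p = 0.0211), while Atp5g1 differed by 0.14 (adjusted p = 0.0756) and Atp5g2 by 0.05 (adjusted p = 0.647), and in wild type they differed by 0.06, 0.04 and 0.04.

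Several probe sets were available for 50 of the members. Among other probe sets of called members with a mean level of 8 or more, 36 of 37 had the same sign as the chosen one in Olig2cre/DA-Cat and 20 of 21 in wild type. The exceptions were in Atp5a1 (-0.061 against 0.15 for the chosen probe set) in Olig2cre/DA-Cat and Ndufb6 (-0.13 against 0.21) in wild type.

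The genotypes were compared to ask whether active β-catenin in the oligodendrocyte lineage goes with another level of these genes, and no member was called. At day 15, 0 of 84 were higher or lower at the threshold, where 0.616% of all genes were higher and 2.31% lower, and the smallest adjusted p was 0.124. At an unadjusted p under 0.05, 15 members were higher and 0 lower, against 8.52% and 8.4% of all genes, and 13.2% higher among genes with a mean level of 10 or more. That count of 15 was not stable. It was 6 with arrays centred on the median, and 7 without Olig2cre/DA-Cat day 15 replicate 3 or wild type day 15 replicate 1. It was 8 without wild type day 15 replicate 2, with the muscle covariate or with only the arrays of the contrast. With the probe set of largest variance it was 9, with array weights 28 and with trend and robust settings 27. The 13.2% belongs to the main fit, and the share of bright genes under these settings was not computed. The median difference was 0.09, against 0.02 over all genes, and 76 of 84 members had a positive sign, against 55.3% of all genes and 59.7% of bright genes. Olig2cre/DA-Cat and wild-type values did not overlap in 42 members that were higher in Olig2cre/DA-Cat and in 0 that were lower, against 10.6% and 9.69% of all genes and 18.4% higher among bright genes. These 42 were 22 of complex I, 1 of complex II (Sdhb), 6 of complex III, 5 of complex IV and 8 of ATP synthase. Members share arrays and are not independent, so these counts describe the set and are not a test of it.

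The members with the smallest p at day 15 came from several complexes. Atp5g1 had 11.97, 12.03 and 12.01 in Olig2cre/DA-Cat, against 11.72, 11.85 and 11.86 in wild type, a difference of 0.20 ± 0.06 (adjusted p = 0.124). Uqcrc1, a core protein of complex III, had 12.52, 12.43 and 12.53 in Olig2cre/DA-Cat, against 12.34, 12.31 and 12.23 in wild type, also 0.20 ± 0.06 (adjusted p = 0.131). Ndufb7 of complex I had 11.99, 12.00 and 12.07 in Olig2cre/DA-Cat, against 11.84, 11.84 and 11.88 in wild type, a difference of 0.17 ± 0.05 (adjusted p = 0.134). In all 3 genes every Olig2cre/DA-Cat value was above every wild-type value at day 15. The smallest p in complex II belonged to Sdha (0.17 ± 0.08, adjusted p = 0.304) and in complex IV to Cox5b (0.11 ± 0.05, adjusted p = 0.284). The members with a negative sign were Ndufa3, Ndufa7, Ndufc2, Cycs, Cox4i2, Cox6b2, Cox8c and Atp5pb, with differences of -0.03 to -0.23. Other bright probe sets were positive for Atp5pb (0.08), Ndufc2 (0.08 and 0.02) and Cycs (0.06 and 0.04). They had both signs for Ndufa7 (-0.01 to 0.05) and were negative for Ndufa3 (-0.05). Among members of positive sign, other bright probe sets were negative for Cox6c (-0.15), Cox7a2 (-0.04) and Ndufb6 (-0.01) and positive for all others. Dimmer ones, at levels of 8.72 to 9.48, were negative for Uqcr10 (-0.21 and -0.06) and Atp5o (-0.01). With the probe set of largest variance 70 of 84 members had a positive sign, against 76 in the main fit.

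At day 4, 0 of 84 members were called, where 1.3% of all genes were higher and 1.81% lower. At an unadjusted p under 0.05, 1 was higher and 3 lower, against 12.8% and 7.75% of all genes. The count of higher members was 13 without wild type day 4 replicate 3, 9 with array weights and 6 with trend and robust settings. The median difference was 0.04, against 0.03 over all genes, and 68 of 84 had a positive sign, against 58.1% of all genes. The values did not overlap in 6 members that were higher and 4 that were lower, against 18.8% and 10.3% of all genes. Cycs had the smallest p and was lower, at 12.16, 12.16 and 12.00 in Olig2cre/DA-Cat, against 12.47, 12.35 and 12.21 in wild type (-0.23 ± 0.08, adjusted p = 0.133). Its other bright probe sets, at levels of 12.27 and 11.82, differed by 0.012 and -0.13, so the lower level was not shared by the Cycs probe set of nearly the same brightness. The median depended on single wild-type arrays, being 0.01 without wild type day 4 replicate 1 and 0.09 without replicate 3, where 1 member was called. Averaged over both days, 0 members were called, where 4.19% of all genes were higher and 4.12% lower. At an unadjusted p under 0.05, 18 members were higher and 2 lower, against 15.8% and 9.98% of all genes. Of 2413 bright genes that are no members, 493 were higher and 336 lower, so the members' share of higher genes was close to theirs. The 18 became 37 without wild type day 4 replicate 3, 9 without replicate 1 and 10 without replicate 2 of that group, 10 without wild type day 15 replicate 1, and 10 with arrays centred on the median; all other settings gave 11 to 33. Ndufs3, a core subunit of the Q module, had 12.07, 12.06 and 12.06 in Olig2cre/DA-Cat, against 11.90, 11.91 and 11.92 in wild type at day 15, and 11.87, 11.85 and 11.81 in Olig2cre/DA-Cat, against 11.76, 11.67 and 11.80 in wild type at day 4. It came nearest to a call (0.13 ± 0.04, adjusted p = 0.0563), followed by Atp5g1 (0.15 ± 0.04, adjusted p = 0.0575) and Uqcrc1 (0.15 ± 0.05, adjusted p = 0.0644). The averaged count was 5 without wild type day 4 replicate 3. Leaving out Olig2cre/DA-Cat day 15 replicate 2 gave an averaged count of 3 and a day 15 count of 1.

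**Figure D4:**
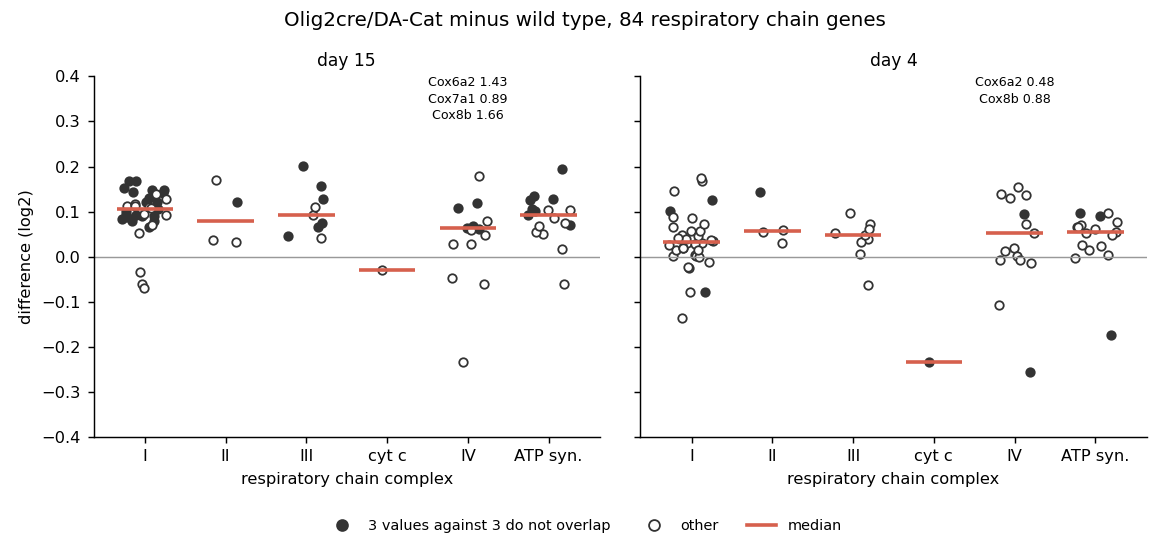
Difference between Olig2cre/DA-Cat and wild type (log2, vertical axis) for the 84 members by complex, at day 15 (left) and day 4 (right). Filled points are genes whose 3 values in each genotype do not overlap, open points are other genes, bars are medians, and genes outside the axis are written with their values; at day 15, 76 differences are above 0, and at day 4, 68.

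The difference between the genotype effects at the 2 days, which equals the difference between the day effects in the 2 genotypes, was not called for any member, where 0.192% of all genes were called higher and 0.159% lower. At an unadjusted p under 0.05, 1 member was higher and 0 lower, against 4.16% and 5.97% of all genes. The day difference was larger in Olig2cre/DA-Cat for 74 of 84 members, against 46.9% of all genes, with a median of 0.05. This tally rested largely on wild type day 4 replicate 3, without which it was 51 of 84 with a median of 0.010, and with arrays centred on the median it was 63 with a median of 0.03. Ndufa12, an accessory subunit of the NADH module, had the smallest p (0.19 ± 0.07, adjusted p = 0.412). The larger number of rises called in Olig2cre/DA-Cat was therefore not shown to be a difference between the genotypes.

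Other mitochondrial genes were read from lists, with the same background shares of all genes as above. Of 44 assembly factors of the complexes, 22 rose and 2 fell in Olig2cre/DA-Cat and 20 rose and 2 fell in wild type, with medians of 0.20 and 0.13. Cox17, the copper chaperone of complex IV, rose by 1.05 ± 0.07 in Olig2cre/DA-Cat (adjusted p = 1.47e-07) and 1.08 ± 0.07 in wild type (adjusted p = 1.55e-07). Atpaf1, which assembles the F1 head, rose by 1.29 ± 0.13 and 1.18 ± 0.13, and Sdhaf3, an assembly factor of complex II, by 0.73 ± 0.05 and 0.80 ± 0.05. Of the 26 subunit and RNA genes of mitochondrial DNA listed, 1 was measured, ND5 of complex I, which differed by 0.15 in Olig2cre/DA-Cat (adjusted p = 0.0995) and 0.01 in wild type (adjusted p = 0.962); the others were not analysed here.

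Of 19 genes of the tricarboxylic acid cycle and pyruvate entry, 11 rose and 2 fell in Olig2cre/DA-Cat, and 10 rose and 2 fell in wild type. Suclg1, a subunit of succinyl-CoA ligase, rose by 0.60 ± 0.06 and 0.49 ± 0.06. Of 20 glycolysis and lactate genes, 12 rose and 6 fell in Olig2cre/DA-Cat, and 11 rose and 5 fell in wild type. These falls were near the shares of all genes that fell, 26.3% and 23.6%. Pkm, pyruvate kinase, rose by 0.92 ± 0.08 and 0.89 ± 0.08, while Ldha, the lactate dehydrogenase subunit abundant in glycolytic tissue, fell (-0.58 ± 0.07 and -0.89 ± 0.07). Ldha was also the glycolysis gene called between genotypes at day 15, higher in Olig2cre/DA-Cat by 0.37 ± 0.07 (adjusted p = 0.0188). Of 19 fatty acid oxidation genes, 9 rose and 3 fell in Olig2cre/DA-Cat and 7 rose and 4 fell in wild type, with Hadhb, the thiolase subunit of the trifunctional protein, up by 1.09 ± 0.08 and 0.92 ± 0.08.

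Among 22 regulators of mitochondrial biogenesis, 5 rose and 2 fell in Olig2cre/DA-Cat and 7 rose and 1 fell in wild type. Over all genes 21.8% rose in Olig2cre/DA-Cat and 21.3% in wild type, so the 5 rises of regulators in Olig2cre/DA-Cat were near that share. Esrra, which encodes an oestrogen-related receptor, rose by 0.60 ± 0.10 in Olig2cre/DA-Cat (adjusted p = 0.000288) and 0.85 ± 0.10 in wild type (adjusted p = 1.97e-05). Tfam, the packaging and transcription factor of mitochondrial DNA, rose by 0.18 ± 0.07 and 0.28 ± 0.07 (adjusted p = 0.0428 and 0.00417). Ppargc1a, the coactivator PGC-1α, was higher in Olig2cre/DA-Cat over both days by 0.28 ± 0.07 (adjusted p = 0.0342), with means of 9.52 ± 0.23 in Olig2cre/DA-Cat and 9.19 ± 0.08 in wild type at day 15 and 9.42 ± 0.02 in Olig2cre/DA-Cat and 9.19 ± 0.11 in wild type at day 4 (SD, n = 3 arrays each). Of 47 mitochondrial large-ribosome genes, 17 rose and 5 fell in Olig2cre/DA-Cat and 17 rose and 1 fell in wild type, and of 29 small-ribosome genes, 9 rose and 1 fell and 7 rose and 2 fell. The rises of small-ribosome genes in wild type were near the share of all genes.

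Cell type markers were read against all genes, of which 21.8% rose and 26.3% fell with day in Olig2cre/DA-Cat and 21.3% rose and 23.6% fell in wild type. All 16 myelin genes measured rose with day in both genotypes, with a median of 3.14 in Olig2cre/DA-Cat and 1.96 in wild type, and 13 were lower in Olig2cre/DA-Cat at day 15 and 15 at day 4, with medians of -0.67 and -2.01. The myelin list averaged 11.42, 11.73 and 11.52 in Olig2cre/DA-Cat at day 15, against 12.29, 12.19 and 12.24 in wild type at day 15, and 8.34, 8.26 and 8.17 in Olig2cre/DA-Cat at day 4, against 10.24, 10.10 and 10.33 in wild type at day 4. The mean of the 73 bright respiratory chain members ran between 12.46 and 12.51 in Olig2cre/DA-Cat at day 15, against 12.38 to 12.43 in wild type. At day 4 the genotypes overlapped, with 12.26 to 12.28 in Olig2cre/DA-Cat, against 12.19 to 12.31 in wild type. Whether the myelin difference bears on these levels was not tested. Of 17 neuron genes, 7 rose and 4 fell with day in Olig2cre/DA-Cat and 6 rose and 8 fell in wild type; the 4 that fell are a share below that of all genes. At day 15 the neuron list averaged 11.55, 11.42 and 11.52 in Olig2cre/DA-Cat, against 11.35, 11.34 and 11.31 in wild type, with a median difference of 0.18 and 1 gene called higher, Syp of synaptic vesicles (0.29 ± 0.06, adjusted p = 0.0268).

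Of 12 astrocyte genes, 7 rose and 3 fell with day in Olig2cre/DA-Cat and 6 rose and 3 fell in wild type, and their mean ran between 11.45 and 11.47 in Olig2cre/DA-Cat at day 15, against 10.93 to 11.05 at day 4, and between 11.42 and 11.48 in wild type at day 15, against 11.05 to 11.14 at day 4. Microglia genes rose with day, 10 of 12 in Olig2cre/DA-Cat and all 12 in wild type, with medians of 0.41 and 0.71. The parts of myelin-forming cells, neurons, astrocytes and microglia in the day and genotype differences of the respiratory chain genes were not tested.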

How the data were processed

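Total RNA from mouse spinal cord was labelled with biotin and hybridised to 12 Affymetrix 3′ arrays, per the labels. The authors deposited 1 log2 signal per probe set and array; the log2 scale was judged from the values, and background correction, summarisation and normalization are not given in the sources used here. Array medians were 6.14 to 6.19, so a shift of most genes would not be visible. Arrays carry no depth, and their number limits the precision. Of 45101 probe sets, 34958 had 1 symbol, 932 several and 9211 none; 34754 matched RefSeq (GRCm38.p6), with 0 symbols changed. The probe set of highest mean was kept for each of 18194 genes, without a filter on brightness. Cox7b was not analysed here.

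Group means of the 4 groups were fitted together with limma 3.58.1 in R 4.3.3 (lmFit, contrasts.fit and eBayes; 8 residual and 3.96 prior degrees of freedom), two-sided, with Benjamini-Hochberg adjustment over all genes and a threshold of 0.05. Every adjusted p comes from this fit or, where stated, an alternative of it. The fit was tested on simulated data. No pair of arrays was identical. Same-numbered arrays correlated between -0.34 and 0.30 in their deviations from the group means, with 5 of 18 pairs above 0.1, so replicate numbers were not used as pairs. Alternatives covered normalization, filters, weights, probe set choice, covariates, a replicate block and each array left out.

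The members, the 21 gene lists (310 of 353 entries measured), the tests and the naming rule were chosen with earlier results of these data known. The rule named up to 4 called members with the smallest p per complex, contrast and direction, the member with the smallest p where none was called, a fixed panel of isoforms and complex II genes, the members of highest and lowest mean per complex, up to 3 called genes of a list, and Ctnnb1, Olig2 and Axin2. Members outside it are named to complete a module and were chosen after their values were seen. RefSeq start windows of 300 bases were searched for exact motif letters on both strands.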

Additional observations from a re-analysis of the deposited data

Results flagged for a closer look

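Ndufa12, an accessory subunit of complex I, had genotype differences of opposite sign at the 2 days with no overlap between the genotypes at either. At day 15 it measured 13.08, 13.11 and 13.13 in Olig2cre/DA-Cat, against 12.98, 13.00 and 13.02 in wild type. At day 4 it measured 12.84, 12.82 and 12.84 in Olig2cre/DA-Cat, against 12.87, 12.94 and 12.94 in wild type. The difference between the day 15 and day 4 genotype effects was 0.19 ± 0.07 (SE) and did not pass the limma test over all genes (adjusted p = 0.412). The other bright Ndufa12 probe sets, at levels of 12.02 and 12.60, had the same signs and smaller effects. They differed by 0.05 and 0.10 at day 15 and by -0.05 and -0.03 at day 4, against 0.11 and -0.08 for the chosen one.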

How the results depend on the processing

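The count of called members stayed within 1.5 times of 53 for the day comparison in Olig2cre/DA-Cat (42 to 61 under 13 other settings, 43 to 58 with 1 array left out) and was 28 to 47 and 24 to 45 for the 37 in wild type. The cause of the changes below was not tested. At day 4 the genotype count of 0 became 2 with array weights and was 0 to 1 with an array left out. At day 15 the 0 became 1 when the dimmest 50% of genes were dropped and 3 each with Eif2s3y as a covariate and with trend and robust settings, and was 0 to 1 with an array left out. Averaged over days, the 0 became 5 and 8 when the dimmest 30% and 50% were dropped, 9 with array weights, 7 with trend and robust settings, 1 each with the mean of all probe sets and with the probe set of largest variance, and 4 with Eif2s3y as a covariate, and was 0 to 5 with an array left out. The difference between genotype effects kept a count of 0 in all 24 fits. Uqcrq in wild type turned to -0.13 with the probe set of largest variance and, in an alternative chosen after seeing the data, with _s_at and _x_at probe sets left out. That Uqcrq probe set had a mean level of 5.68, below the array medians, against 11.98 for the chosen one. Atp5a1 in Olig2cre/DA-Cat turned to -0.061 with the probe set of largest variance, which had a mean level of 8.59, against 13.26 for the chosen one. The replicate block gave 54 called members in Olig2cre/DA-Cat and 37 in wild type for the day comparisons and 0 in the genotype comparisons. Of 5379 values of named members under alternatives, 5139 kept their direction and side of the threshold, 174 lost and 63 gained the call, and 3 reversed. With no depth or detection calls, the 11 members with a mean level under 10 are the least certain.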

Other observations

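With day, 21.8% of all genes rose and 26.3% fell in Olig2cre/DA-Cat and 21.3% rose and 23.6% fell in wild type, and the lists below stand beside these shares. Of 17 hypoxia response genes, 9 rose and 4 fell in each genotype, the falls being no larger a share than in all genes, and Ndrg1, which is also abundant in myelinating cells, rose by 1.32 in Olig2cre/DA-Cat (adjusted p = 4.5e-06) and 2.10 in wild type (adjusted p = 1.38e-07). Ndrg1 was lower in Olig2cre/DA-Cat than in wild type at day 15, by -0.91 (adjusted p = 0.00301). Of 13 genes for ADP/ATP carriers, porins and creatine kinases, 6 rose and 0 fell in Olig2cre/DA-Cat and 6 rose and 1 fell in wild type. Ckmt1, the mitochondrial creatine kinase of brain, rose by 0.92 ± 0.09 (SE) in Olig2cre/DA-Cat and 0.80 ± 0.09 in wild type.

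Of 16 fission, fusion and inner membrane genes, 10 rose and 2 fell with day in Olig2cre/DA-Cat and 8 rose and 2 fell in wild type. Mfn1, a fusion protein of the outer membrane, rose by 0.42 in each genotype (adjusted p = 0.000195 in Olig2cre/DA-Cat and 0.000225 in wild type), and Phb2, an inner membrane prohibitin, fell (-0.46 in Olig2cre/DA-Cat and -0.51 in wild type). Chchd6, a subunit of the complex that forms cristae junctions, was higher in Olig2cre/DA-Cat averaged over both days by 0.21 (adjusted p = 0.0169).

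The same shares of all genes apply to markers of other tissues. Of 8 heart muscle genes, 1 fell with day in each genotype, Nppa, and the list averaged 5.05 to 5.62 on the arrays. Of 7 brown fat genes, 1 rose and 2 fell with day in Olig2cre/DA-Cat and 0 rose and 2 fell in wild type; the gene that rose was Cox7a1 itself. Of 21 skeletal muscle genes, 3 rose and 1 fell in Olig2cre/DA-Cat and 2 rose and 0 fell in wild type, the largest rise being that of Pvalb, which neurons also express. The lists of 10 oligodendrocyte precursor genes (5 rose and 2 fell in Olig2cre/DA-Cat, 3 rose and 3 fell in wild type), 9 endothelial genes (4 and 2, then 4 and 3), 9 pericyte and smooth muscle genes (4 and 1, then 2 and 1) and 3 red blood cell genes (0 called) complete the set.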
